A study of Homo sapiens with 12 samples.

Results

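Glycolysis turns glucose into pyruvate in a fixed chain of enzymes, and lactate dehydrogenase then interconverts pyruvate and lactate. Many of these enzymes, the glucose transporters that feed them and the kinases that set the level of the activator fructose bisphosphate are transcribed under hypoxia-inducible factor (HIF), together with genes of blood vessel growth, mitochondrial turnover, collagen processing and HIF control itself. HIF is kept low in oxygenated cells because prolyl hydroxylases such as EGLN1 mark its alpha subunit for destruction through VHL. A list of 36 such genes was followed here in 2 established human cell lines with and without knockdown of NCSTN, the gene of nicastrin, a subunit of the gamma-secretase protease complex. Genes were matched to probes through the platform annotation and kept where 3 or more of the 12 arrays detected a probe (detection p under 0.01), which left 32 of the 36 genes, among 11075 genes in all. They comprised 17 of 17 glycolytic enzymes, 4 of 6 genes of transport and flux control and 11 of 13 other hypoxia targets. SLC16A3, PDK1, EGLN3 and CA9 had no probe named by the annotation and were not analysed here.

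RNA was hybridised to 12 Illumina BeadChip arrays, 3 in each of 4 groups. HEK293 cells with the NCSTN hairpin (called A08) were set against HEK293 cells with the pLKO control hairpin against luciferase, and HEK001 cells with A08 against HEK001 cells with pLKO. HEK293 is an embryonic kidney line, grown here in DMEM with serum, and HEK001 an immortalised epidermal keratinocyte line, grown in a serum-free keratinocyte medium. All 4 groups had lentivirus with polybrene at 10 µg/mL for 24 h and puromycin for about 2 weeks, at 2 µg/mL in HEK293 and at a labelled 0.5, with an incompletely written unit, in HEK001. A single NCSTN hairpin was used, so an effect of the loss of NCSTN and another effect of that hairpin cannot be told apart. Its target sequence is shown because it defines every A08 group.
A08 hairpin target: gctctactgaatactctacat
One label field names HEK001 as the source of every sample, whereas the titles and cell line entries of 6 name HEK293, and the groups follow the titles. Nothing in the labels says that the 3 replicates are separate cultures. The p-values therefore cover only how far these samples vary, and that variation may be technical. Fewer cells of a type and less RNA per cell cannot be told apart in RNA from whole cultures.

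Between 14818 and 16333 of 47318 probes were detected per array, and arrays of 1 group correlated across genes at r of 0.989 or more. NCSTN was 7.73, 7.77 and 7.89 in HEK293 A08 cells, against 9.66, 9.82 and 9.80 in HEK293 pLKO cells, on the scale of normalized log2 intensity used throughout. In HEK001 it was 6.55, 6.99 and 6.84 in A08 cells, against 9.92, 9.95 and 9.77 in pLKO cells. It was thus lower on every A08 array than on every control array of its line (log2 difference -1.97 in HEK293 and -3.09 in HEK001). Of 12 keratinocyte markers 7 were measured, and all 7 were detected on every HEK001 array, whereas all 7 went undetected on every HEK293 pLKO array and 6 of them on every HEK293 A08 array. Of 8 markers typical of HEK293 6 were measured, and all 6 were detected on every HEK293 array. In each HEK001 group 1 of these 6 was detected on all 3 arrays and 4 were detected on none. Differences between groups come from a limma fit over all genes and are given on the log2 scale with the standard error (SE) of the fit. Genes are said to have risen, fallen or changed at a Benjamini-Hochberg adjusted p under 0.05. Where groups are said not to overlap, this only describes 3 against 3 arrays. Some genes that did not pass had no overlap either, such as HK1 and TPI1 in HEK293 and PFKL and ALDOA in HEK001. The share of all genes without overlap was not computed.

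In HEK293 cells the NCSTN hairpin was accompanied by lower NDRG1, PFKFB4, SLC2A3 and BNIP3 and by higher ADM and P4HA2. Of the 17 glycolytic enzymes 14 did not pass the test, and neither did 8207 of all 11075 genes. Of the 32 genes 12 changed, 3 upwards and 9 downwards, a share of 37.5%. Over all genes 25.9% changed in this comparison, 12.4% upwards and 13.5% downwards. The list was chosen with earlier results of these data known, so these shares are a description alone. The changed genes were 3 of 17 enzymes, all 4 measured genes of transport and flux control, and 5 of 11 other hypoxia targets. Under median scaling over all probes, which called 900 genes in place of 2868, 6 of the 12 calls remained, those of SLC2A3, PFKFB4, ADM, NDRG1, BNIP3 and P4HA2. The 6 measured HEK293 markers summed to a linear intensity of 10320 to 10890 on A08 arrays and 11410 to 12720 on pLKO arrays. Of the 7 keratinocyte markers 1 rose (sums of 179.8 to 212.7 in A08 and 156 to 178.1 in pLKO cells). The 1 measured of 6 fibroblast markers fell (27.19 to 39.21 in A08 and 52.45 to 71.62 in pLKO cells). These values lie close to background: all 7 keratinocyte markers went undetected on every pLKO array. The fibroblast marker was not detected on all 3 A08 arrays. The part of these markers in the HEK293 values was not tested.

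**Figure D1:**
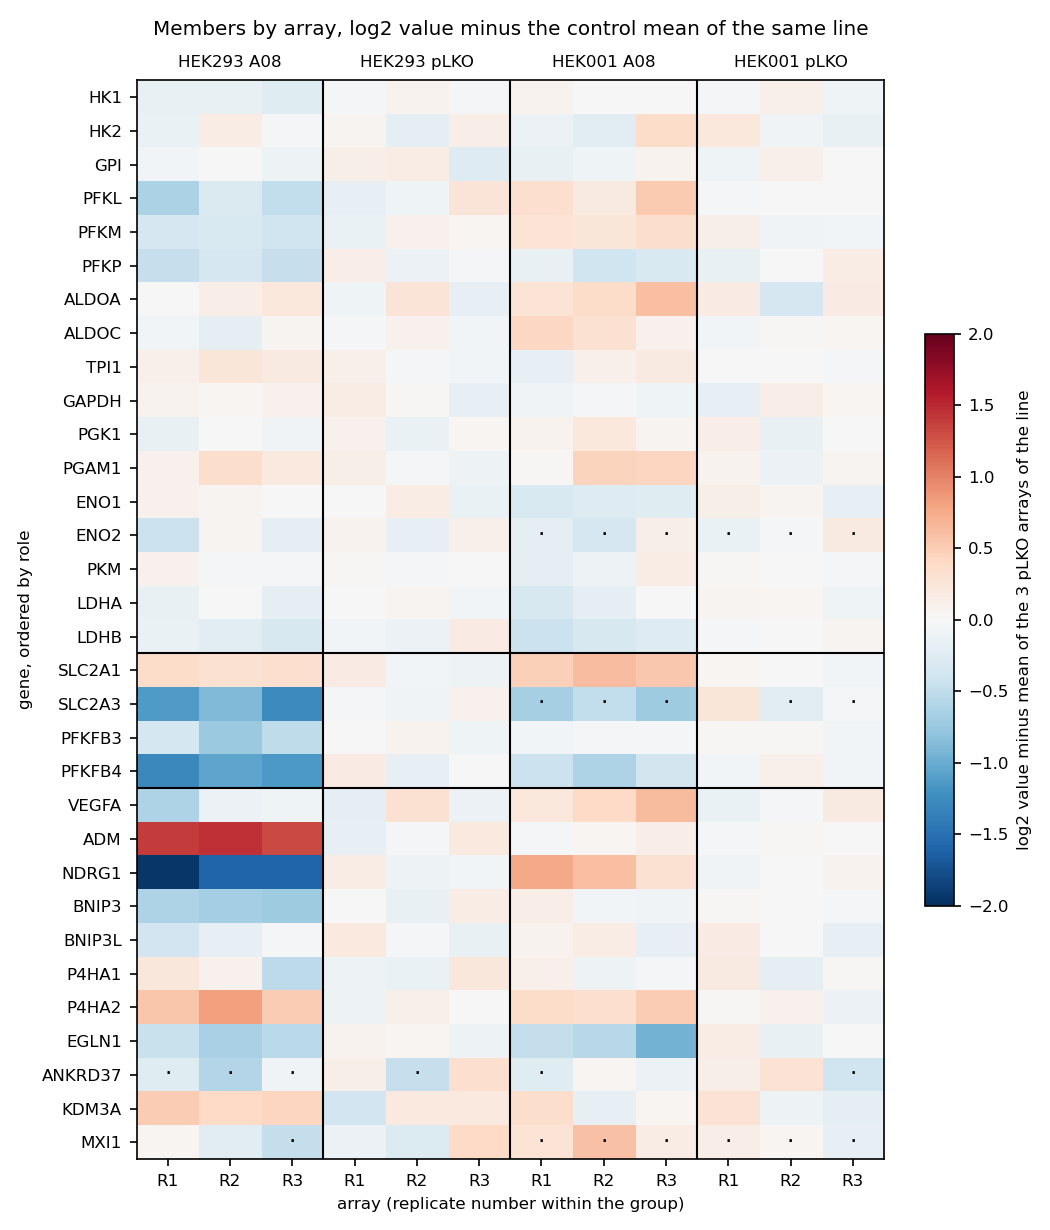
Heat map of the 32 genes (rows, by role) on the 12 arrays (columns), coloured by log2 value minus the mean of the 3 pLKO arrays of the same line. Dots mark arrays on which the probe was not detected. In HEK293 A08 cells NDRG1, PFKFB4 and SLC2A3 are blue and ADM is red on all 3 arrays.

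All 3 genes of phosphofructokinase, the enzyme of the committed step of glycolysis, fell in HEK293. PFKL, the liver-type subunit, was 7.04, 7.39 and 7.18 in A08 cells, against 7.51, 7.60 and 7.93 in pLKO cells (log2 difference -0.47, SE 0.131, adjusted p = 0.0180). PFKM, the muscle-type subunit, was 9.10, 9.14 and 9.03 in A08 cells, against 9.31, 9.52 and 9.47 in pLKO cells (-0.35, SE 0.0925, adjusted p = 0.0152). PFKP, the platelet-type subunit, was 10.08, 10.22 and 10.10 in A08 cells, against 10.68, 10.44 and 10.53 in pLKO cells (-0.42, SE 0.107, adjusted p = 0.0119). For each of the 3 subunits every A08 array lay below every control array. None of the other 14 enzymes passed the threshold. Their differences lay between -0.22 for LDHB, the heart-type lactate dehydrogenase (adjusted p = 0.115, 95% interval of the fit -0.44 to -0.01), and 0.21 for PGAM1, a phosphoglycerate mutase (adjusted p = 0.248, -0.06 to 0.48). LDHA, the muscle-type lactate dehydrogenase, had a difference of -0.10 (-0.32 to 0.11), and GAPDH, the glyceraldehyde phosphate dehydrogenase, one of 0.07 (-0.16 to 0.29). PKM, the pyruvate kinase gene, differed by 0.00 (-0.21 to 0.21). The call of PFKL was lost without A08 replicate 1 (adjusted p = 0.0721), without A08 replicate 3 (0.0514) or without pLKO replicate 3 (0.0730). PFKM lost its call without A08 replicate 3 (0.0570) or pLKO replicate 2 (0.0567), and PFKP without pLKO replicate 1 (0.0525).

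The 4 measured genes of transport and flux control moved in both directions. SLC2A3, which encodes the glucose transporter GLUT3, was 7.99, 8.24 and 7.84 in HEK293 A08 cells, against 9.10, 9.05 and 9.21 in HEK293 pLKO cells, 2.13-fold lower (log2 difference -1.09, SE 0.133, adjusted p = 8.29e-05). SLC2A1, which encodes GLUT1, was 9.60, 9.55 and 9.58 in A08 cells, against 9.40, 9.18 and 9.15 in pLKO cells (0.34, SE 0.0920, adjusted p = 0.0173). The 2 transporters thus changed in opposite directions, each with no overlap between its groups. PFKFB4, a kinase and phosphatase that sets fructose 2,6-bisphosphate, was 5.55, 5.80 and 5.70 in A08 cells, against 7.01, 6.69 and 6.85 in pLKO cells, 2.24-fold lower (-1.16, SE 0.111, adjusted p = 1.13e-05). Its paralog PFKFB3, in which the kinase activity prevails, was 9.12, 8.72 and 8.96 in A08 cells, against 9.48, 9.54 and 9.39 in pLKO cells (-0.54, SE 0.103, adjusted p = 0.00227). Every A08 array was below every control array for both kinases. A second, dimmer PFKFB3 probe gave 0.15 (adjusted p = 0.466 over all probes), and the mean of both probes gave -0.19 (adjusted p = 0.146), so the PFKFB3 call rests on its brighter probe. SLC2A1 lost its call without A08 replicate 1 (adjusted p = 0.0505), pLKO replicate 2 (0.0566) or pLKO replicate 3 (0.0618), or when only the 6 HEK293 arrays were fitted (0.0507).

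**Figure D2:**
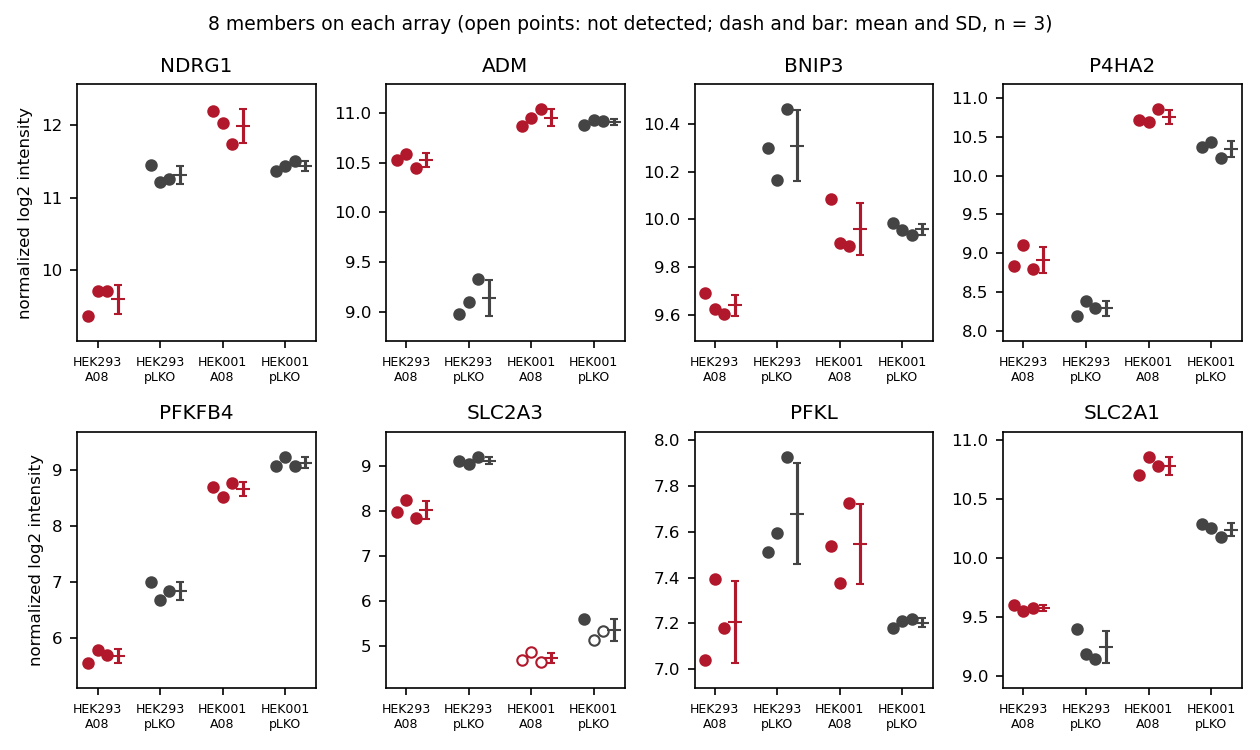
Normalized log2 intensity of 8 genes on each of the 12 arrays (points; open where not detected), with mean and SD of 3 arrays (dash and bar). NDRG1 lies below its controls in HEK293 and above them in HEK001, and ADM lies above its controls in HEK293 and overlaps them in HEK001.

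Among the other hypoxia targets, NDRG1 and ADM had the lowest and the highest difference of the 32 genes in HEK293. NDRG1, a stress-responsive gene linked to differentiation, was 9.36, 9.71 and 9.72 in A08 cells, against 11.46, 11.22 and 11.26 in pLKO cells, 3.28-fold lower (log2 difference -1.72, SE 0.133, adjusted p = 2.17e-06). ADM, which encodes the vasodilator peptide adrenomedullin, was 10.53, 10.59 and 10.45 in A08 cells, against 8.98, 9.09 and 9.33 in pLKO cells, 2.62-fold higher (1.39, SE 0.101, adjusted p = 1.46e-06). The gap between the groups exceeded 1 log2 unit for each gene. BNIP3, a receptor for the removal of mitochondria, was 9.69, 9.63 and 9.60 in A08 cells, against 10.30, 10.17 and 10.46 in pLKO cells, 1.59-fold lower (-0.67, SE 0.0965, adjusted p = 0.000289). Its paralog BNIP3L did not pass (-0.20, 95% interval -0.49 to 0.09, adjusted p = 0.320).

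P4HA2, a catalytic subunit of collagen prolyl hydroxylase, was 8.84, 9.11 and 8.79 in A08 cells, against 8.19, 8.39 and 8.29 in pLKO cells, 1.54-fold higher (log2 difference 0.62, SE 0.107, adjusted p = 0.00107). EGLN1, the HIF prolyl hydroxylase, was 7.09, 6.89 and 6.99 in A08 cells, against 7.59, 7.57 and 7.43 in pLKO cells, 1.45-fold lower (-0.54, SE 0.128, adjusted p = 0.00787). Neither gene's groups overlapped. VEGFA, the vascular growth factor, had a difference of -0.27 (-0.64 to 0.10) and P4HA1, the other measured subunit gene of that hydroxylase, one of -0.07 (-0.45 to 0.31). KDM3A, a histone demethylase, had 0.45 (0.07 to 0.83, adjusted p = 0.0772). ANKRD37, an ankyrin repeat gene, was detected on 0 of 3 A08 and 2 of 3 pLKO arrays, and MXI1, a MYC antagonist, on 2 of 3 A08 and 3 of 3 pLKO arrays, and neither passed.

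HIF binds the core sequences ACGTG and GCGTG, so the promoters of 4 genes that changed in HEK293 are printed to show where these letters stand. PFKFB4, BNIP3 and EGLN1 fell and ADM rose. Each window covers the 250 bases before the start in RefSeq annotation of GRCh38.p14, read 5′ to 3′ along the gene's strand. They lie at chr3:48556804-48557053 on the minus strand for PFKFB4, chr10:131981924-131982173 on the minus strand for BNIP3, chr1:231422288-231422537 on the minus strand for EGLN1 and chr11:10304823-10305072 on the plus strand for ADM. Capitals mark ACGTG and GCGTG on either strand, so CACGT and CACGC are capitals too, and CACGTG counts on both strands.
PFKFB4: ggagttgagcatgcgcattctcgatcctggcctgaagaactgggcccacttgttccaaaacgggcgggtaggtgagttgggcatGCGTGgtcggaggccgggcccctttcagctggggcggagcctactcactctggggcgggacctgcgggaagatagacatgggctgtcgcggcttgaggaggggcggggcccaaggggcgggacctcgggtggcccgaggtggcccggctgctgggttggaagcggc
BNIP3: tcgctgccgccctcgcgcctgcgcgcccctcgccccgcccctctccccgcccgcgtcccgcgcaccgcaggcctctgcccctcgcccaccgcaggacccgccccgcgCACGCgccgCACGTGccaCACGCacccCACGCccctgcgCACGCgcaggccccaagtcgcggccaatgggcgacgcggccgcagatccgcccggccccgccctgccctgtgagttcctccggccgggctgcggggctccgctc
EGLN1: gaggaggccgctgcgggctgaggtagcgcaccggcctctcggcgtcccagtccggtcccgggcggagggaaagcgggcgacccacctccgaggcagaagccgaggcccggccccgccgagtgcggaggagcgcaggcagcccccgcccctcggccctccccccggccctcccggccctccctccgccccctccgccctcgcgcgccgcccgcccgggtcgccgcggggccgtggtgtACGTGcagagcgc
ADM: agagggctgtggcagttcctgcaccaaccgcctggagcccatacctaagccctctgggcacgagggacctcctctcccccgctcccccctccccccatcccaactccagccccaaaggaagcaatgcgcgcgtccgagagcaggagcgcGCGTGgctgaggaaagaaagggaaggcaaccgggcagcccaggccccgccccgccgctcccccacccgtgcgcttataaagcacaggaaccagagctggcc
The BNIP3 window held 2 matches to ACGTG and 4 to GCGTG. Single matches stood in the other three windows, to GCGTG for PFKFB4 and ADM and to ACGTG for EGLN1. RefSeq windows were matched for 32 of the 36 listed genes, 61 windows in all, since some genes have several starts and 20 have 1. VEGFA, SLC2A3, BNIP3L and NDRG1 were not matched. ACGTG stood in 23 of the 61 windows (37.7%) and in 18.5% of all 35116 windows of that length, and GCGTG in 20 (32.8%) against 32.2% of all. These are matches of letters and show no binding, windows of 1 gene can overlap, and no test was made. SLC2A1 and P4HA2, which rose in HEK293, had no match in their windows, and ADM, which rose as well, had a match.

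In HEK001 cells 8 of the 32 genes changed, 4 upwards and 4 downwards, a share of 25%. Over all genes 16.2% changed in this comparison, 8.35% upwards and 7.89% downwards, and the number of changed genes was 1799, or 1147 without pLKO replicate 3. Here too the shares are a description alone, as the list was chosen with earlier results of these data known. The 8 genes were 2 of 17 enzymes, 3 of 4 genes of transport and flux control and 3 of 11 other hypoxia targets. Under median scaling over all probes 1 of the 8 calls remained, that of EGLN1. The count was 5 without A08 replicate 2, without pLKO replicate 2 or without pLKO replicate 3. In these cells 5 of the 7 measured keratinocyte markers rose with A08, their summed linear intensity being 41420 to 45360 on A08 arrays and 33790 to 34420 on pLKO arrays. Of the 6 HEK293 markers 2 fell, with sums of 618.9 to 660.7 in A08 and 787.1 to 928.4 in pLKO cells. The part of either in the values that follow was not tested.

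Of the enzymes in HEK001, PFKM was 9.84, 9.80 and 9.91 in A08 cells, against 9.68, 9.50 and 9.51 in pLKO cells (log2 difference 0.29, SE 0.0925, adjusted p = 0.0494). LDHB was 11.99, 12.09 and 12.15 in A08 cells, against 12.37, 12.41 and 12.46 in pLKO cells (-0.34, SE 0.0985, adjusted p = 0.0344). The groups did not overlap for either gene, but the calls lay close to the threshold, and 15 of 22 alternative settings ended that of PFKM and 7 of 22 that of LDHB. PFKM lost its call without any of the HEK001 arrays other than pLKO replicate 1 (adjusted p = 0.0785 to 0.148) and without HEK293 A08 replicate 1, 2 or 3 or HEK293 pLKO replicate 3 (0.0580 to 0.0626). LDHB lost its call without any of the HEK001 arrays other than A08 replicate 3 (0.0637 to 0.113). Each of the other 15 enzymes missed the threshold. ALDOA, the muscle-type aldolase, had the highest difference among them, 0.41 (0.08 to 0.74, adjusted p = 0.0899), and PFKP the lowest, -0.28 (-0.51 to -0.05, adjusted p = 0.0977). PFKL had 0.34 (0.06 to 0.63, adjusted p = 0.0942). ENO2, the neuronal enolase, was detected on no HEK001 array, so no change is stated for it.

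SLC2A1 was 10.71, 10.86 and 10.79 in HEK001 A08 cells, against 10.29, 10.25 and 10.18 in HEK001 pLKO cells, 1.46-fold higher (log2 difference 0.55, SE 0.0920, adjusted p = 0.00175). PFKFB4 was 8.69, 8.52 and 8.77 in A08 cells, against 9.07, 9.24 and 9.08 in pLKO cells, 1.39-fold lower (-0.47, SE 0.111, adjusted p = 0.0126). Neither gene's groups overlapped. The PFKFB4 call was lost without A08 replicate 2 (adjusted p = 0.0530) or pLKO replicate 2 (0.0528). PFKFB3 had a difference of -0.04 (-0.27 to 0.18, adjusted p = 0.835). SLC2A3 counted among the 8 with a fitted -0.62 (adjusted p = 0.00742), but its probe was detected on 0 A08 arrays and 1 pLKO array, so the fitted value gives no fold and no change in HEK001 is stated.

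NDRG1 was 12.20, 12.04 and 11.74 in HEK001 A08 cells, against 11.37, 11.44 and 11.51 in HEK001 pLKO cells, 1.47-fold higher (log2 difference 0.55, SE 0.133, adjusted p = 0.0138). P4HA2 was 10.71, 10.68 and 10.85 in A08 cells, against 10.36, 10.43 and 10.23 in pLKO cells, 1.33-fold higher (0.41, SE 0.107, adjusted p = 0.0208). EGLN1 was 6.03, 5.96 and 5.56 in A08 cells, against 6.65, 6.35 and 6.52 in pLKO cells, 1.58-fold lower (-0.66, SE 0.128, adjusted p = 0.00419). The A08 and pLKO arrays did not overlap for any of the 3 genes. Leaving out A08 replicate 1 ended the call of NDRG1 (adjusted p = 0.0583), and leaving out A08 replicate 3 (0.0682) or pLKO replicate 3 (0.0846) that of P4HA2. Dimmer P4HA2 probes gave 0.09 and 0.41 in HEK001 (adjusted p = 0.635 and 0.218 over all probes), so the P4HA2 call there rests on its brightest probe. ADM, at 10.87, 10.95 and 11.04 in A08 cells and 10.87, 10.93 and 10.92 in pLKO cells, overlapped between the groups (0.04, -0.17 to 0.26), and BNIP3 differed by 0.00 (-0.21 to 0.21). VEGFA had 0.41 (0.04 to 0.78, adjusted p = 0.122).

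**Figure D3:**
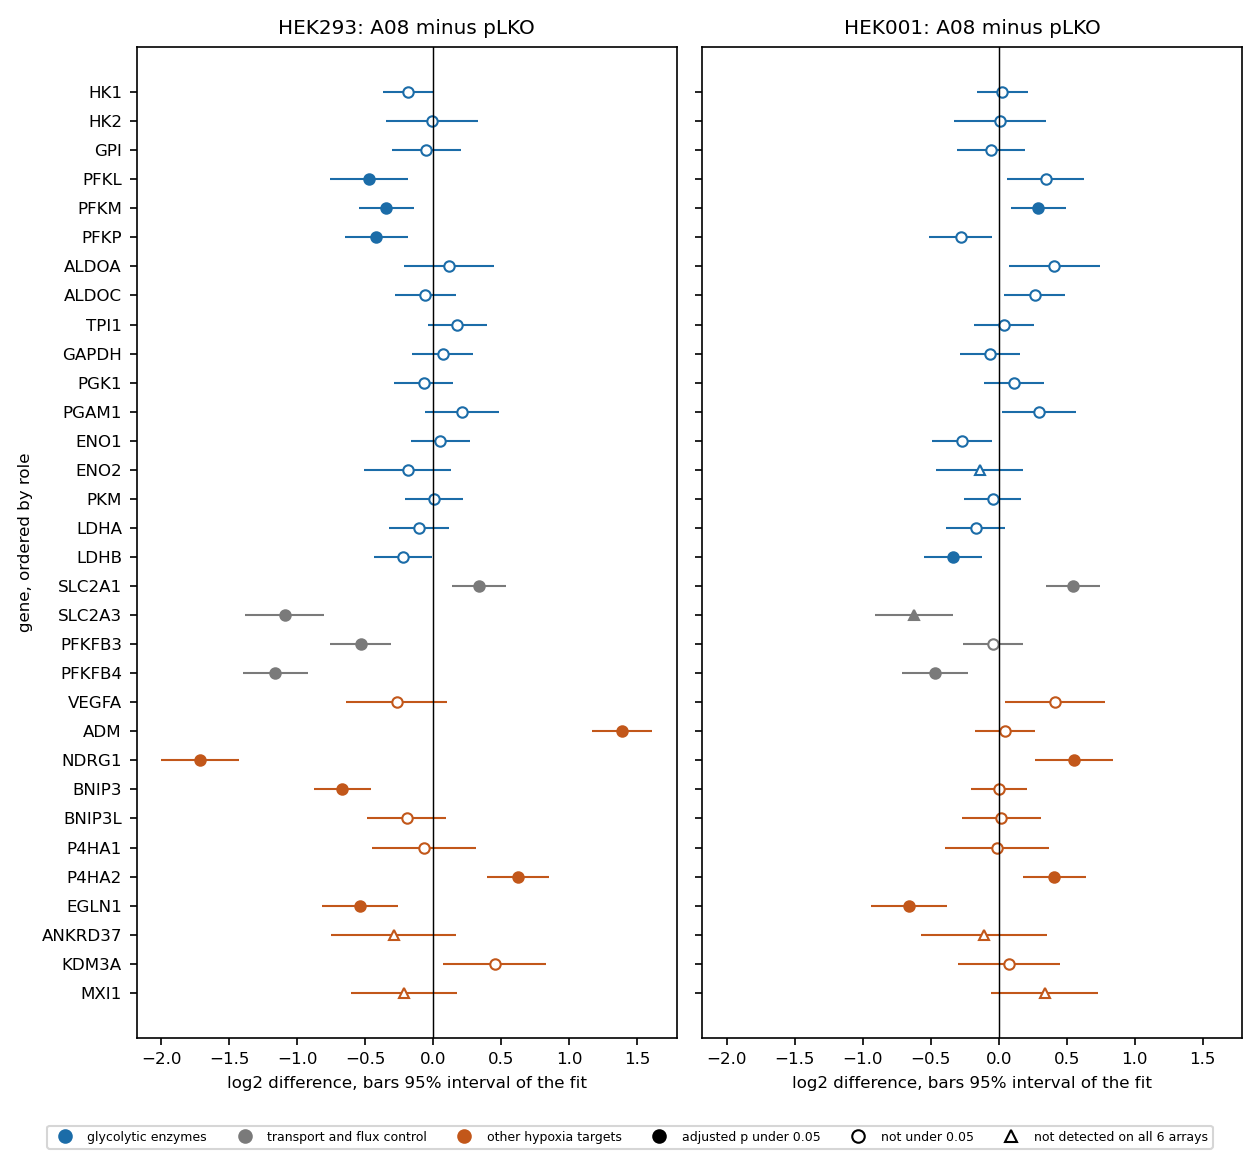
Log2 difference, A08 minus pLKO, of the 32 genes in HEK293 (left) and HEK001 (right), with 95% intervals of the fit. Filled symbols have an adjusted p under 0.05 and triangles mark genes not detected on all 6 arrays, among them SLC2A3 in HEK001, detected on 0 A08 arrays and 1 pLKO array. PFKFB4 and EGLN1 lie left of 0 in both lines, SLC2A1 and P4HA2 right of 0 in both, and NDRG1 on opposite sides.

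Whether the response differed between the lines was tested as the effect in HEK293 minus the effect in HEK001. Of the 32 genes 7 differed (21.9%), 1 with a higher and 6 with a lower effect in HEK293, against 24.5% of all genes, 11.7% higher and 12.8% lower. NDRG1 had the largest difference in size among the 32 (-2.27, SE 0.188, adjusted p = 6.94e-06), with -1.72 in HEK293 and 0.55 in HEK001. ADM followed (1.34, SE 0.143, adjusted p = 5.28e-05), with 1.39 in HEK293 and 0.04 in HEK001. The 2 phosphofructokinase genes PFKL (-0.82, SE 0.185, adjusted p = 0.00687) and PFKM (-0.64, SE 0.131, adjusted p = 0.00396) had lower effects in HEK293. So did PFKFB4 (-0.69, SE 0.157, adjusted p = 0.00705), BNIP3 (-0.67, SE 0.137, adjusted p = 0.00374) and PFKFB3 (-0.49, SE 0.146, adjusted p = 0.0264).

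For PFKFB4 the direction was the same in both lines and the size was not, -1.16 in HEK293 and -0.47 in HEK001. The PFKFB3 difference was lost without A08 replicate 2 of HEK293 (adjusted p = 0.0548), without pLKO replicate 1 (0.0509) or 2 (0.0549) of HEK293, or without pLKO replicate 3 of HEK001 (0.0601). Its second probe gave 0.29, the mean of both probes -0.10 (adjusted p = 0.615), and median scaling over the kept probes -0.37 (adjusted p = 0.109), so that call rests on the brighter probe too. SLC2A1 (-0.21, -0.49 to 0.07), P4HA2 (0.21, -0.11 to 0.54), EGLN1 (0.12, -0.27 to 0.51) and PFKP (-0.14, -0.47 to 0.19) did not differ between the lines at the threshold. NCSTN itself was lowered further in HEK001 (difference 1.12, adjusted p = 0.000470), and its part in these differences was not tested. Of the 7 calls, those of ADM and NDRG1 remained under median scaling over all probes.

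In both lines 7 of the genes passed the test. The share of all genes that passed in both was not computed, so this count is a description alone. SLC2A1, PFKFB4, P4HA2 (by its brightest probe) and EGLN1 had the same direction in both, and PFKM and NDRG1 had opposite directions. No direction is read for SLC2A3, which was not measurable in HEK001. Of the HEK001 calls only that of EGLN1 remained under median scaling over all probes, and that of PFKM was lost in 15 of 22 alternatives. PFKL, PFKP, PFKFB3, ADM and BNIP3 passed in HEK293 and not in HEK001, and LDHB in HEK001 and not in HEK293, and for PFKP and LDHB the test between the lines was not passed. The other 19 passed in neither line.

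By role, the median difference in HEK293 was -0.06 over the 17 enzymes, -0.81 over the 4 genes of transport and flux control and -0.22 over the 11 other hypoxia targets, against 0.01 over all genes. The median size of the difference, regardless of sign, was 0.12 over the enzymes and 0.45 over the other targets, against 0.21 over all genes. In HEK001 the medians were 0.01, -0.26 and 0.04, against -0.01 over all genes, and the median sizes of enzymes and other targets were 0.17 and 0.11, against 0.17 over all genes. Enzymes therefore stood below the other targets in median size in HEK293 and above them in HEK001, as a description of these genes with no test. Per array, the median of the enzymes relative to the control mean was -0.14, 0.00 and -0.07 in HEK293 A08 cells, against 0.03, -0.02 and -0.04 in HEK293 pLKO cells. For transport and flux control it was -0.74, -0.81 and -0.83 in A08 cells, against 0.09, -0.06 and -0.04 in pLKO cells. For the other hypoxia targets it was -0.24, -0.16 and -0.08 in A08 cells, against -0.10, -0.05 and 0.15 in pLKO cells. The values of the groups overlapped for the enzymes and for the other targets, and did not for transport and flux control. The median of the other targets in HEK293 was -0.12 without pLKO replicate 3, and it joins rises of ADM and P4HA2 with falls of NDRG1, BNIP3 and EGLN1.

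**Figure D4:**
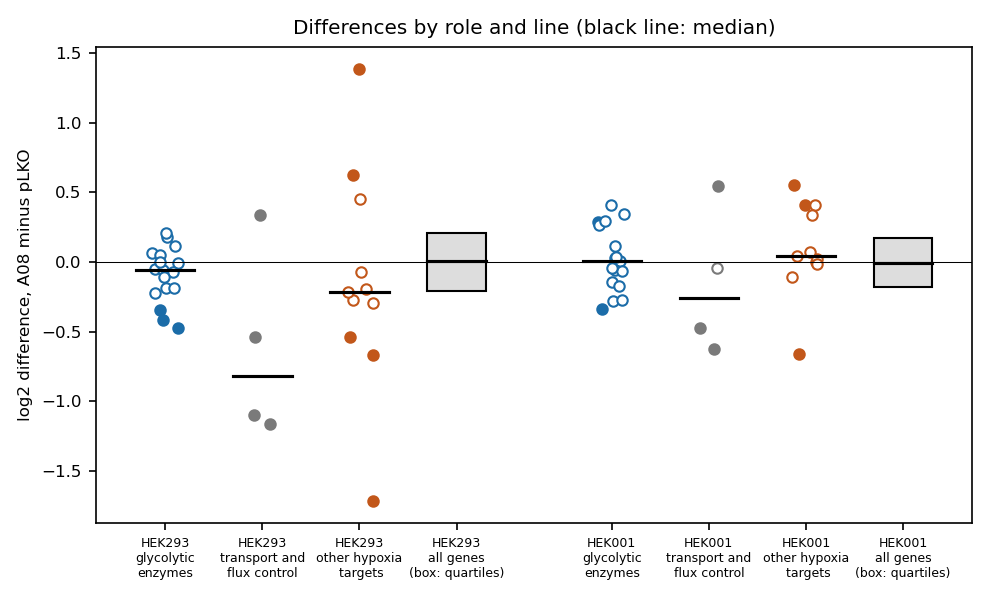
Log2 difference, A08 minus pLKO, by role in each line. Points are genes (filled where the adjusted p was under 0.05, SLC2A3 in HEK001 included), black lines are medians, and the box spans the quartiles of all 11075 genes. The medians of the enzymes lie near 0 in both lines, while single hypoxia targets in HEK293 reach -1.72 and 1.39.

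HEK293 and HEK001 control cells differed widely at baseline, in a share of the listed genes near that of all genes. Of the 32 genes 25 differed between pLKO cells of the 2 lines (78.1%), 9 higher and 16 lower in HEK293, against 72.7% of all genes, 39.4% higher and 33.2% lower. Among genes detected on all 12 arrays, 22 of 28 listed genes and 5582 of 7636 genes in all differed. Growth medium and puromycin dose also differ between the lines, so the line and its medium cannot be told apart. Of the enzymes 5 were higher and 9 lower in HEK293, of the genes of transport and flux control 1 and 3, and of the other hypoxia targets 3 and 4. The median difference was -0.29 over the enzymes and -0.17 over the other targets, against 0.07 over all genes. The median of the other targets was -0.35 without HEK001 pLKO replicate 3 and -0.077 without HEK293 pLKO replicate 2, and scaling to the median of all probes gave 4 genes higher and 17 lower.

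PFKFB4 was 7.01, 6.69 and 6.85 in HEK293 pLKO cells, against 9.07, 9.24 and 9.08 in HEK001 pLKO cells, 4.87-fold lower in HEK293 (log2 difference -2.28, SE 0.111, adjusted p = 5.26e-10). P4HA2 was 4.13-fold lower (-2.05, SE 0.107, adjusted p = 1.11e-09) and ADM 3.42-fold lower in HEK293 (-1.77, SE 0.101, adjusted p = 2.76e-09). No HEK293 pLKO array reached the lowest HEK001 pLKO array for these genes. With the NCSTN hairpin ADM stood at 10.45 to 10.59 in HEK293, against 10.87 to 10.93 in HEK001 pLKO cells, 2 groups that were not tested against each other. The aldolase genes ALDOC (-1.39) and ALDOA (-1.22), the hexokinases HK1 (-1.30) and HK2 (-1.05), VEGFA (-1.24) and SLC2A1 (-1.0) were lower in HEK293 too, as were P4HA1 (-0.74), the enolase ENO1 (-0.68) and LDHA (-0.59).

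EGLN1 was 2.03-fold higher in HEK293 (1.02, SE 0.128, adjusted p = 8.22e-06), and GPI, the phosphoglucose isomerase, 1.77-fold (0.83, SE 0.117, adjusted p = 2.53e-05). PFKL (0.48), LDHB (0.41), PGAM1 (0.40) and BNIP3 (0.35) were higher as well. Of these 25 genes only BNIP3 changed sign in an alternative, to -0.06 (adjusted p = 0.820) under median scaling over all probes. SLC2A3 was at least 12.5-fold, ENO2 at least 5.51-fold and MXI1 at least 1.43-fold higher in HEK293. These 3 were detected in HEK001 pLKO cells on 1, 0 and 0 arrays and so entered through their HEK293 signal, which makes their difference a description alone. PFKM, PFKP, TPI1, NDRG1, BNIP3L, ANKRD37 and KDM3A did not pass.

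**Figure D5:**
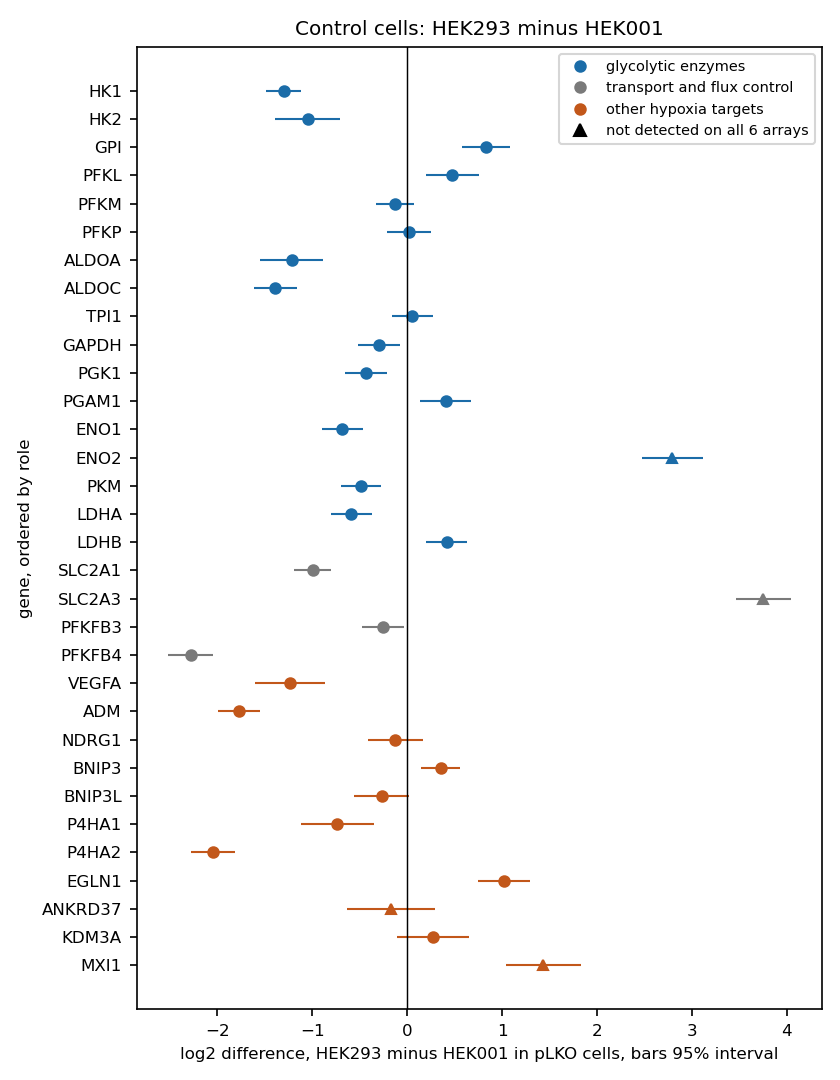
Log2 difference between the control cells of the lines, HEK293 minus HEK001, for the 32 genes with 95% intervals of the fit. Triangles mark genes not detected on all 6 arrays. PFKFB4, P4HA2 and ADM lie furthest to the left and SLC2A3 and ENO2 furthest to the right.

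For 12 of the 32 genes several probes were kept, 48 probes in all, and the brightest stood for the gene. Probes disagreed in a few places, with p-values adjusted over all probes. A second P4HA2 probe gave 0.67 in HEK293 (adjusted p = 0.000831) and 0.09 in HEK001 (0.635), with a difference between the lines of 0.58 (0.0183) where the brightest probe gave 0.21. A second VEGFA probe, detected on every HEK001 and on no HEK293 array, rose by 0.60 in HEK001 (0.00459), where the brightest probe had 0.41 and did not pass. For PKM, 1 of 3 probes gave 0.47 in HEK293 (0.0401) while the brightest gave 0.00. A dim ALDOA probe had a fitted -0.59 in HEK293, against 0.12 for the brightest. It was detected on 3 HEK293 pLKO arrays and on 0 arrays of every other group. It was thus kept only through the group where it was high, and its value is a description alone. Related sequences such as pseudogenes of GAPDH, PGK1, TPI1, LDHA and PGAM1 could share signal with these probes, which was not analysed here.

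Genes around the pathway came from 6 further lists. Their counts were read against the same background shares, 25.9% of all genes in HEK293 and 16.2% in HEK001. Of 15 genes of HIF and its control 13 were measured, and in HEK293 3 rose and 1 fell (30.8% of the 13). The coactivator CREBBP rose by 0.77 (SE 0.102, adjusted p = 0.000153), CITED2, which competes with HIF for that coactivator, by 0.74 (SE 0.146, adjusted p = 0.00261), and EPAS1, the HIF2 alpha subunit, by 0.30 (SE 0.0963, adjusted p = 0.0382). VHL, the ubiquitin ligase subunit that binds hydroxylated HIF, fell by 0.35 (SE 0.114, adjusted p = 0.0400). In HEK001 1 of the 13 changed (7.69%), EPAS1, with a rise of 0.52 (SE 0.0963, adjusted p = 0.00306). The HEK293 call of EPAS1 was lost without HEK293 A08 replicate 1 or 2, HEK293 pLKO replicate 2 or 3 or HEK001 pLKO replicate 2 (adjusted p = 0.0510 to 0.139), and with an offset of 50 (0.0637), scaling over the kept probes (0.0651) or only the 6 HEK293 arrays (0.0939). That of VHL was lost without any 1 of the 6 HEK293 arrays, HEK001 A08 replicate 2 or HEK001 pLKO replicate 3 (0.0502 to 0.100), and without normexp (0.0501) or with scaling over the kept probes (0.121). HIF1A, the HIF1 alpha subunit, had 0.41 in HEK293 (adjusted p = 0.132, detected on 2 of 3 pLKO arrays) and 0.08 in HEK001 (adjusted p = 0.826).

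Of 27 further hypoxia targets 24 were measured. In HEK293 1 rose and 6 fell (29.2%), and in HEK001 1 rose and 1 fell (8.33%). GBE1, the glycogen branching enzyme, rose at least 2.59-fold in HEK293 (log2 difference 1.38, adjusted p = 0.000148), being detected on 2 of 3 pLKO arrays. STC2, a secreted glycoprotein, fell by 1.05 in HEK293 (SE 0.116, adjusted p = 3.80e-05) and by 0.51 in HEK001 (SE 0.116, adjusted p = 0.00986). The carbonic anhydrase gene CA12 fell by 0.77 (adjusted p = 0.000480) and the mTORC1 inhibitor DDIT4 by 0.65 (adjusted p = 0.000639) in HEK293. BHLHE40, a transcriptional repressor, rose by 0.33 in HEK001 (adjusted p = 0.0205), a call lost without A08 replicate 1 or 2 or pLKO replicate 1 or 3 of that line (0.0509 to 0.0676) and with scaling over the kept probes (0.0698).

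Among 9 measured of 20 other glycolytic isoforms and side steps, 1 rose and 2 fell in HEK293 (33.3%) and 1 fell in HEK001 (11.1%). ADPGK, an ADP-dependent glucokinase, rose by 0.60 (adjusted p = 0.00117), and GPD1L, related to glycerol phosphate dehydrogenase, fell by 0.69 (adjusted p = 0.000215) in HEK293. The muscle enolase ENO3 fell by 0.52 in HEK293 (adjusted p = 0.0221, and 0.0518 to 0.0746 without A08 replicate 1 or 2 or pLKO replicate 1 or 3), and BPGM, the bisphosphoglycerate mutase, by 0.62 in HEK001 (adjusted p = 0.00720). Of 14 measured of 16 genes of pyruvate entry and lactate exchange, 2 fell in HEK293 (14.3%) and 1 in HEK001 (7.14%). DLD, a shared subunit of the pyruvate dehydrogenase complex, fell by 0.65 in HEK293 (adjusted p = 0.00700) and by 0.73 in HEK001 (adjusted p = 0.00628). PDK4, an inhibitor kinase of that complex, counted as a fall in HEK293 by its fitted value (adjusted p = 0.00159). Its probe was detected on 0 A08 arrays there. The bound on the fold was only 1.03, so no size of a fall is stated.

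Of 7 genes of the pentose phosphate pathway 6 were measured, with 1 rise (RPIA, the ribose phosphate isomerase, 0.46, adjusted p = 0.0187) and 1 fall (TALDO1, the transaldolase, -0.33, adjusted p = 0.0194) in HEK293 (33.3% of the 6). In HEK001 1 of the 6 changed (16.7%), PGLS, the lactonase, with a rise of 0.52 (adjusted p = 0.00416). Of 5 glucose-responsive genes 4 were measured, and 1 of them changed in HEK293 (25%). MLXIPL, which encodes the carbohydrate response factor ChREBP, fell by 1.24 in HEK293 (SE 0.156, adjusted p = 0.000101), and 0 of the 4 changed in HEK001 by limma (1 at an unadjusted p under 0.05). The RPIA call was lost without A08 replicate 1 or 3 or pLKO replicate 2 (adjusted p = 0.0504 to 0.0719) or with only the 6 HEK293 arrays (0.0531). That of TALDO1 was lost without A08 replicate 2 or 3 or pLKO replicate 1 (0.0563 to 0.0734) or with scaling over the kept probes (0.0891). Of the 22 changes named from the further lists, 10 passed in every alternative that could be run and 12 were lost under median scaling over all probes. PDK4 is among the 10 by its fitted value alone.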

How the data were processed

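In all, 12 RNA samples of 2 established lines were measured on 12 Illumina BeadChip arrays. Per the file headers, the authors' deposited table gives 47318 probes with their signal, its detection p-value and the number of beads, beside a bead error that was not used. Its signal is a linear intensity, background-subtracted and not normalized between arrays: 27.07% to 29.12% of values per array lie below 0. The deposited p-values of detection are multiples of 1 over 770. A smaller table the authors deposited has log2 values for 21270 probes, with a shared median of 6.666 and minimum of 1, and served as an alternative. GenomeStudio 2010 and R 3.0.2 are named, without a role, in the submitters' processing notes.

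Signals were background-corrected by normexp from the detection p-values with an offset of 16 and quantile normalized, as in limma's neqc. Detection at p under 0.01 was required on 3 or more of the 12 arrays, which 18152 probes met. Of these, 14411 had 1 gene in the platform annotation and 3741 were unnamed and left out. Of the 16040 singly named probes on the array, 16030 matched RefSeq genes of GRCh38.p14 by gene ID, used for names alone. Each gene was represented by its probe of highest mean. Means of the 4 groups were fitted with limma 3.58.1 in R 4.3.3 (empirical Bayes, 8 residual and 12.8 total degrees of freedom), with Benjamini-Hochberg adjustment over 11075 genes and calls at an adjusted p under 0.05. The fit alone was run on simulated log2 values with independent normal noise, which does not cover background correction, detection or scaling. Where a probe was not detected on all 3 arrays of the dimmer group, a fold is "at least", computed against its own value or, where higher, each array's lowest detected value. With 3 arrays per group, their number limits the precision.

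The genes and lists were chosen with earlier results of these data known. All 32 measured genes may be named, and of each further list up to the 3 highest and 3 lowest changed genes per line. Alternatives covered background, offset, scaling, detection filters, the authors' log2 values, the mean of probes, the arrays fitted, a replicate block and each array left out.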

Additional observations from a re-analysis of the deposited data

Results flagged for a closer look

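The A08 effect differed between the lines by the test of that difference in the limma fit for 7 of the 32 genes, for NCSTN and for 16 of the 70 measured genes of the further lists (22.9%, against 24.5% of all genes). Of those 16, 12 are among the 19 genes named for passing in a line and are given here. Values are the effect in HEK293 minus the effect in HEK001. Among the 32 genes they were -0.82 for PFKL, -0.64 for PFKM, -0.49 for PFKFB3 (-0.10 with the mean of its 2 probes), -0.69 for PFKFB4, 1.34 for ADM, -2.27 for NDRG1 and -0.67 for BNIP3.

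Among genes of HIF control the difference was 0.84 for CREBBP (adjusted p = 0.00129) and 0.82 for CITED2 (adjusted p = 0.0118). Of the further hypoxia targets, GBE1 had 1.32 (adjusted p = 0.00286), STC2 -0.54 (adjusted p = 0.0308), CA12 -0.84 (adjusted p = 0.00332) and DDIT4 -0.82 (adjusted p = 0.00158). ADPGK had 0.64 (adjusted p = 0.00806), GPD1L -0.48 (adjusted p = 0.0215) and BPGM 0.75 (adjusted p = 0.0117). PDK4 had -0.69 (adjusted p = 0.00660), TALDO1 -0.44 (adjusted p = 0.0279) and MLXIPL -1.55 (adjusted p = 0.000376). GBE1, PDK4 and MLXIPL were not detected on all 12 arrays, so their values are fitted and no bound. NCSTN differed by 1.12. Groups of 3 arrays are too small for a test of outlying samples.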

How the results depend on the processing

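Over 22 alternatives, SLC2A3, PFKFB4, ADM, NDRG1, BNIP3 and P4HA2 in HEK293, EGLN1 in HEK001, and the ADM and NDRG1 differences between the lines passed the test in each alternative that could be run. PFKFB4 in HEK293 ranged between -1.48 and -0.81, and its difference between the lines between -0.99 and -0.37. The single alternative that ended the most calls was median scaling over all probes, whose median lies among undetected probes; the cause was not tested. It gave 900 changed genes in HEK293 (348 higher, 552 lower), 545 in HEK001 (259, 286), 796 for the difference (352, 444) and 6826 between control lines (2935, 3891), where the main fit had 4366 higher and 3680 lower. Listed genes changed then numbered 6 in HEK293 (2 higher, 4 lower), 1 in HEK001 (0, 1), 2 for the difference (1, 1) and 21 between control lines (4, 17). It also ended the HEK293 calls of EGLN1, PFKFB3, the phosphofructokinases and SLC2A1. The median of all genes between control lines then shifted to -0.13, the enzyme median to -0.50 and that of other targets to -0.47, and the enzyme median in HEK001 to -0.055. BNIP3 between control lines turned to -0.061 and TALDO1 to -0.12. Median scaling over the kept probes, chosen after seeing the data, left 12, 7, 6 and 24 listed genes and a median of other targets between lines of -0.30.

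Between control lines the median of other targets was -0.28 without normexp and -0.27 over genes detected on all 12 arrays. The enzyme median there was -0.36 over genes detected on all 12 arrays and -0.20 with the mean of probes, which gave -0.055 in HEK001. Within a line, deviations from the group means correlated at r between -0.05 and 0.07 for equal replicate numbers. That cannot show whether samples of the same number were handled together. With the replicate as a block, listed genes changed numbered 12 in HEK293, 6 in HEK001 and 8 for the difference, and PFKM (adjusted p = 0.0790) and LDHB (0.0504) were lost in HEK001.

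Leaving out 1 array gave 2260 to 2990 changed genes in HEK293, 1147 (without HEK001 pLKO replicate 3) to 1859 in HEK001, 2254 to 2548 for the difference and 7624 to 8121 between lines. Listed genes numbered 10 to 12, 5 to 8, 6 to 8 and 23 to 26. Enzyme medians ran from -0.09 to -0.03 in HEK293, -0.05 to 0.02 in HEK001 and -0.37 to -0.21 between lines, and those of other targets from -0.27 to -0.12, -0.01 to 0.11 and -0.35 (without HEK001 pLKO replicate 3) to -0.077 (without HEK293 pLKO replicate 2). A slide as a block was not run, since the headers used here give no slide. Signal over background limits ENO2, SLC2A3, ANKRD37 and MXI1, not detected on all 12 arrays. PFKFB4 in HEK293 A08 cells and EGLN1 in HEK001 A08 cells were detected but lay close to background, with detection p-values up to 0.0052 and 0.0039. Over the alternatives PFKFB4 in HEK293 ranged between -1.48 and -0.81 and EGLN1 in HEK001 between -0.85 and -0.45. Their folds therefore depend on the processing.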
